A study of Sus scrofa with 14 samples.

Results

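The 6 genes described here, FASN, CES1, DGAT2, PPARG, FABP4 and CHPT1, make, store or split lipids or control the genes that do so. Every probe set whose only gene symbol in the platform annotation was one of these 6 was taken, which gave 9 of the 23999 probe sets tested. FASN had 4 of them and each of the other genes had 1. The genes were chosen on their difference between the groups compared below, with FASN, CES1, DGAT2 and PPARG on the side of high prolificacy and FABP4 and CHPT1 on the side of low prolificacy. Their group differences are therefore a description and carry no test.

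Transcript levels were measured on an Affymetrix porcine array in uterus of 14 pregnant Iberian x Meishan F2 sows, 1 array per sow. The labels class 5 sows as of high prolificacy and 9 as of low prolificacy. All 14 belonged to the same F2 cross and were slaughtered on days 30 to 32 of pregnancy number 5, so the groups differ, as far as the labels say, in the prolificacy class alone. The study asked which uterine genes differ between the classes, and the labels do not say which layers of the uterine wall a sample held. All values are log2 levels summarised by the authors with RMA, and all differences are high minus low prolificacy.

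Fatty acid synthase (FASN) builds palmitate from acetyl and malonyl units. Diacylglycerol acyltransferase DGAT2 adds the last acyl chain of a triacylglycerol, and the carboxylesterase CES1 hydrolyses esters, neutral lipids among them, inside the endoplasmic reticulum. PPARG is a nuclear receptor that pairs with a retinoid X receptor and drives fat cell genes. FABP4 is a carrier of fatty acids in the cytosol, known from fat cells, macrophages and capillary endothelium, and in mouse adipocytes it is a classical target of PPARG. CHPT1 joins phosphocholine to diacylglycerol and so makes phosphatidylcholine, the main phospholipid of membranes.

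FASN was measured by 4 probe sets that did not show the same difference. The brightest read 8.92, 9.51, 9.52, 10.11 and 10.48 in high 1 to high 5, and between 7.43 and 8.43 with a median of 7.89 in the 9 low prolificacy arrays. No low prolificacy array reached the lowest of the 5 high ones, with 0.49 between the nearest arrays of the groups, high 1 and low 4. The means were 9.71 ± 0.60 over the 5 high arrays and 7.90 ± 0.32 over the 9 low arrays (SD), a difference of 1.80 or 3.49-fold.

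The second brightest FASN probe set read 6.33, 6.61, 6.84, 6.77 and 7.07 in the high arrays and 5.41 to 6.56 (median 6.34) in the low arrays. Its difference was 0.52, and high 1 fell inside the range of the low arrays. The third read 5.67, 5.83, 6.39, 6.39 and 6.34 in the high arrays against 5.04 to 6.10 (median 5.60) in the low arrays, a difference of 0.50. Here both high 1 and high 2 lay inside the range of the low arrays. The dimmest read 4.70, 4.94, 4.94, 4.92 and 5.37 in the high arrays against 4.83 to 5.21 (median 5.00) in the low arrays. It differed by -0.023 and was under the array's own median on all 14 arrays, and only high 5 lay above the low arrays. High 5 was the highest high prolificacy array in 3 of the 4 probe sets, all but the third, and high 1 was the lowest in all 4.

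CES1 had the widest difference among the 6 genes and also the widest spread in high prolificacy. It read 8.28, 11.06, 10.21, 8.31 and 11.16 in high 1 to high 5, and 5.30 to 7.63 with a median of 6.04 in the low arrays. High 1 and high 4 read far below high 2, high 3 and high 5, and even high 1 stood 0.64 above low 8, the highest low prolificacy array. The means were 9.80 ± 1.43 over the 5 high arrays and 6.12 ± 0.73 over the 9 low arrays (SD), a difference of 3.68 or 12.8-fold. A further probe set carried CES1 together with a second symbol and was not counted. It averaged 5.09 ± 1.37 over the 5 high arrays and 3.42 ± 0.26 over the 9 low arrays (SD). High 1 (3.60) and high 4 (3.59) again lay below high 2 (6.21), high 3 (6.08) and high 5 (5.98), and here they were inside the range of the low arrays. Carboxylesterase genes resemble each other, and whether these probes also bind other copies was not tested.

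DGAT2 read low in the same high prolificacy arrays as CES1. It read 4.74, 7.24, 6.91, 4.77 and 7.04 in high 1 to high 5, against 4.25 to 5.29 with a median of 4.67 in the low arrays. High 2, high 3 and high 5 lay above every low prolificacy array, while high 1 and high 4 lay in the middle of the low arrays. The means were 6.14 ± 1.27 over the 5 high arrays and 4.67 ± 0.31 over the 9 low arrays (SD), a difference of 1.46 or 2.76-fold. Among the low arrays, low 8 was the highest in both CES1 (7.63) and DGAT2 (5.29).

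PPARG read 5.20, 6.41, 6.90, 6.09 and 5.48 in high 1 to high 5, and 3.50 to 5.22 with a median of 4.37 in the low arrays. The groups overlapped by a single pair of arrays, since high 1 lay 0.016 below low 4, and the other high arrays all lay above the low ones. The means were 6.02 ± 0.69 over the 5 high arrays and 4.39 ± 0.46 over the 9 low arrays (SD), a difference of 1.63 or 3.10-fold. The receptor did not order the high arrays as CES1 and DGAT2 did: high 4 was above high 5 in PPARG and below it in the other 2 genes. In low prolificacy PPARG and DGAT2 both averaged under the lowest array median of 5.72, and no detection calls were used, so their low group levels may lie near background.

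FABP4 was lower in high prolificacy. It read 5.11, 2.71, 3.74, 3.62 and 3.47 in high 1 to high 5, and 5.43 to 7.57 with a median of 5.77 in the low arrays. All 5 high arrays lay below all 9 low arrays, with high 1 only 0.31 under low 6, and low 7 (7.16) and low 8 (7.57) stood above the rest. The means were 3.73 ± 0.87 over the 5 high arrays and 6.14 ± 0.76 over the 9 low arrays (SD), a difference of -2.41 or 5.31-fold. All 5 high values were under 5.72, the lowest array median, which limits that fold in the same way as for PPARG and DGAT2.

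CHPT1 was bright on every array and nearly constant in low prolificacy. It read 8.95, 8.37, 8.22, 9.04 and 7.83 in high 1 to high 5, and 9.93 to 10.20 with a median of 10.13 in the low arrays. All 5 high arrays lay below all 9 low arrays, with 0.89 between the nearest of them. The means were 8.48 ± 0.51 over the 5 high arrays and 10.10 ± 0.091 over the 9 low arrays (SD), a difference of -1.62 or 3.08-fold. High 1 and high 4, the arrays nearest to low prolificacy in CES1 and DGAT2, were also the nearest to it in CHPT1.

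**Figure D1:**
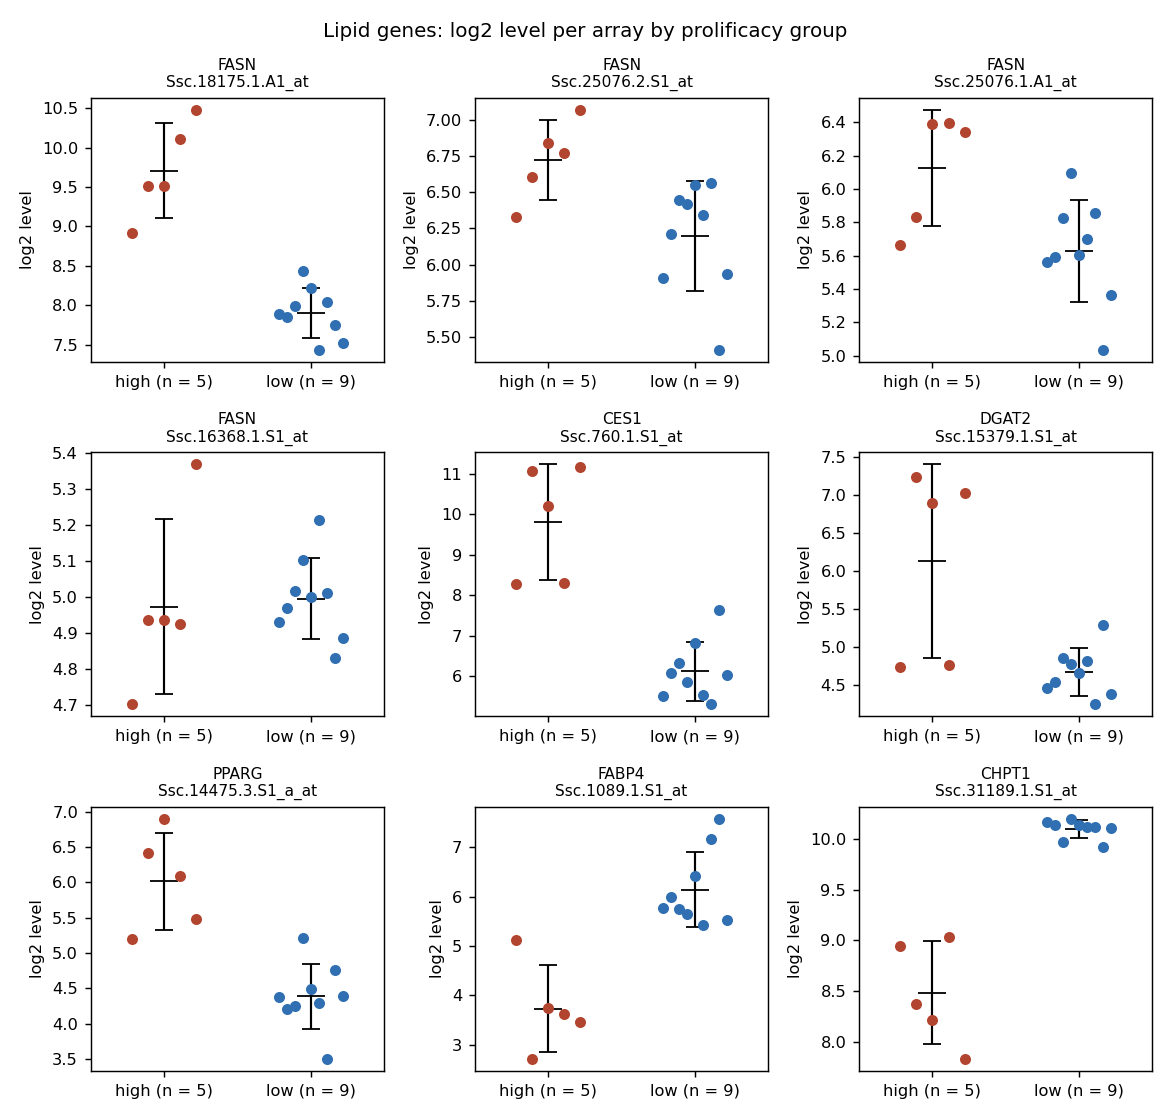
Log2 level (y axis, a separate scale in each panel) of the 9 probe sets of the 6 genes, with the high prolificacy arrays at the left and the low prolificacy arrays at the right of each panel. Points are arrays in replicate order and bars are the mean ± SD. The groups do not overlap in the brightest FASN probe set, CES1, FABP4 and CHPT1, and in DGAT2 high 1 (4.74) and high 4 (4.77) lie among the low arrays.

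Of the 9 probe sets, 6 passed an adjusted p of 0.05 in limma, 1 for each gene, where 7.85% of all 23999 probe sets did (3.50% higher and 4.35% lower). In 4 the groups did not overlap, where this held for 2.64% of all probe sets. Since the genes were picked on this contrast, nothing is read from these shares. With 1 array left out at a time, the difference of the brightest probe set stayed between 1.61 and 2.00 for FASN, 3.34 and 4.06 for CES1, 1.19 and 1.81 for DGAT2, 1.41 and 1.83 for PPARG, -2.76 and -2.16 for FABP4, and -1.76 and -1.46 for CHPT1.

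Markers of the tissue layers moved between the same groups. Smooth muscle genes were called lower in 16 of 17 cases (94.1%), where 5.42% of all genes were. For list means, each gene's own 14-array mean was first taken off its log2 level. The smooth muscle mean ranged from -3.19 to -0.18 in high and from 0.60 to 1.82 in low prolificacy. Of 17 uterine epithelium genes 9 rose (52.9%), where 5.34% of all genes did. The epithelium mean ranged from 0.64 to 1.55 in high and from -2.36 to 0.24 in low prolificacy. KRT8, a keratin of simple epithelia, averaged 11.68 ± 0.62 over the 5 high arrays and 9.21 ± 0.83 over the 9 low arrays (SD), and CNN1, smooth muscle calponin, averaged 7.86 ± 1.69 over the 5 high arrays and 12.48 ± 0.45 over the 9 low arrays (SD). In whole tissue, fewer cells of a type and less RNA per cell cannot be told apart.

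The marker means of single high prolificacy arrays are given here beside CES1 and DGAT2. The epithelium mean was 0.64 in high 1 and 0.65 in high 4, against 1.38, 1.55 and 1.48 in high 2, high 3 and high 5. The mean of 10 trophoblast genes was 1.00 in high 1 and 2.55 in high 4, against -1.09, -0.89 and 0.13 in high 2, high 3 and high 5. Over all arrays the trophoblast mean ranged from -1.09 to 2.55 in high and from -1.17 to 1.28 in low prolificacy, and limma called none of its 10 genes (1 at an unadjusted p under 0.05). The smallest p among them was that of the transcription factor TFAP2C (difference 0.84, limma adjusted p = 0.23). The smooth muscle mean was -0.18 in high 1 alone and between -3.19 and -2.17 in the other 4. The part of the trophoblast genes in the levels of CES1 and DGAT2 was not tested. The smooth muscle and epithelium means are set against both genes in a covariate fit and within low prolificacy below. No relation was tested among the high arrays alone.

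**Figure D2:**
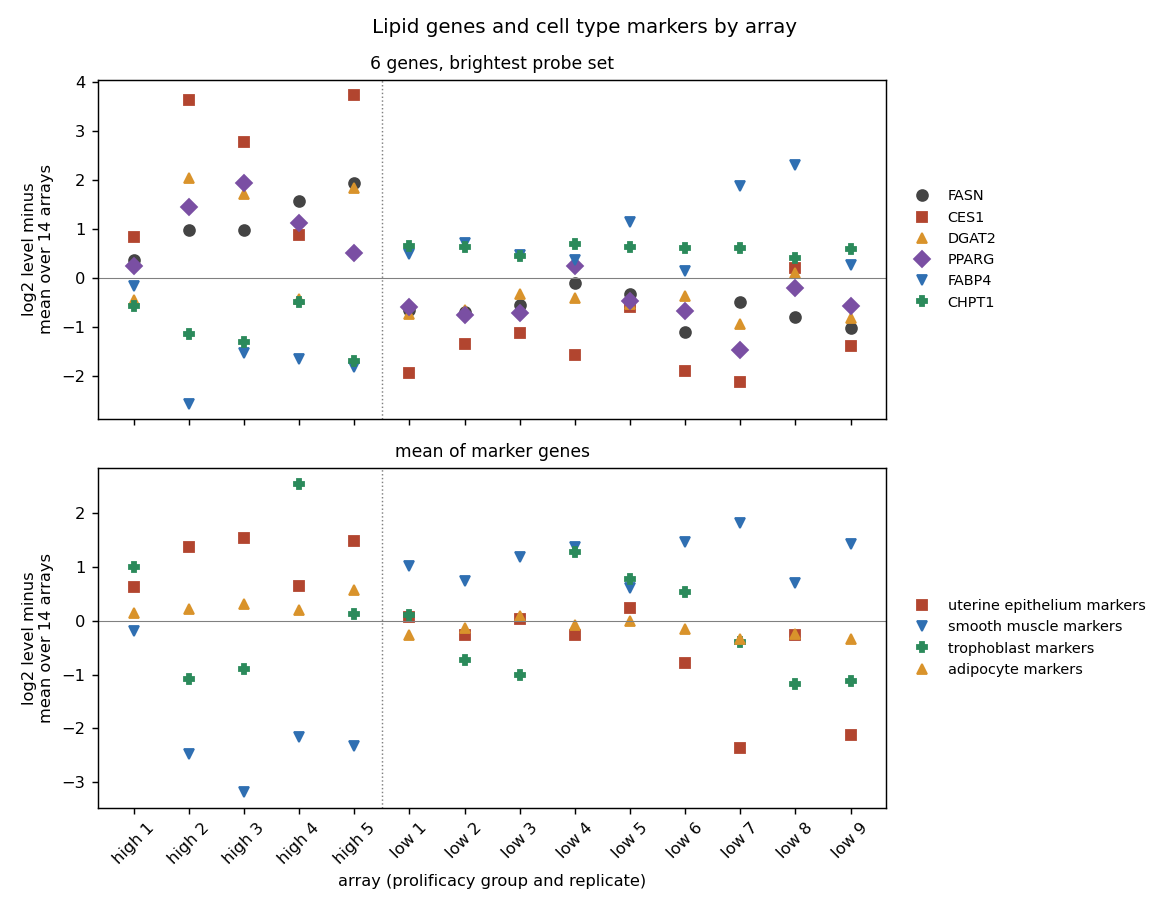
Upper panel, log2 level of the brightest probe set of each of the 6 genes minus its mean over the 14 arrays (y axis), for each array (x axis, high prolificacy left of the dotted line and low prolificacy right of it). Lower panel, the mean of the marker genes of 4 cell types on the same scale. CES1 and DGAT2 lie lower in high 1 and high 4 than in the other high arrays, where the epithelium mean is also lower (0.64 and 0.65) and the trophoblast mean higher (1.00 and 2.55).

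With the smooth muscle and epithelium means as covariates, the differences of the brightest probe sets were smaller in size for all 6 genes. They were 1.03 ± 0.57 (limma SE) for FASN, 0.80 ± 1.04 for CES1, 0.069 ± 0.58 for PPARG, -1.11 ± 1.02 for FABP4 and -0.92 ± 0.39 for CHPT1. The difference of DGAT2 changed sign, to -0.78 ± 0.80. These 2 means explained 83.9% of the variance of the group label over the 14 arrays, so this fit leaves little of the group difference to estimate. Without low 7 and low 9, the arrays with the lowest epithelium means (-2.36 and -2.12), the differences were 1.77 for FASN, 3.55 for CES1, 1.36 for DGAT2, 1.503 for PPARG, -2.35 for FABP4 and -1.62 for CHPT1.

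FABP4 and PPARG are both used as fat cell genes, yet they lay on opposite sides. Of the other fat cell markers, 7 of 9 (77.8%) had a positive difference, where 60.1% of all genes did. The median difference of the 9 was 0.11, and that of all genes 0.073. Of these 9 genes on the array, which leave out the 6 genes and include 2 that also stand in a lipid list below, CFD rose and the rest were not called. CFD, the complement protease adipsin, averaged 10.06 ± 0.79 over the 5 high arrays and 8.01 ± 0.73 over the 9 low arrays (SD) (limma adjusted p = 0.0053). The mean of the 9 ranged from 0.15 to 0.57 in high and from -0.34 to 0.093 in low prolificacy. Most of the group difference in this mean came from CFD and PCK1, since the other genes of the list differed by between -0.031 and 0.21. PCK1, ADIPOQ and LEP are named after their values were seen. PCK1, a phosphoenolpyruvate carboxykinase, had the second largest difference of the list and was not past the threshold. It averaged 7.93 ± 0.94 over the 5 high arrays and 6.36 ± 1.07 over the 9 low arrays (SD), a difference of 1.57 or 2.97-fold (limma adjusted p = 0.085), and the groups overlapped. The fat cell hormones ADIPOQ (3.74 in high and 3.61 in low) and LEP (5.40 in high and 5.36 in low) averaged under the lowest array median in both groups and differed by 0.13 and 0.04.

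FABP4 is also a gene of capillary endothelium and macrophages, and markers of both are given beside it. Of 12 endothelium genes KDR rose, in 1 of its 2 probe sets, and PECAM1 fell by 1.07, with both of its probe sets called. PECAM1 is named because it was the only gene of its list called lower. The difference was negative in 10 of the 12, and 16.7% were positive, where 60.1% of all genes were. At an unadjusted p under 0.05 in limma, 4 were lower and 1 was higher. The median difference was -0.43. The list mean lay between -0.85 and 0.38 in high and between -0.35 and 0.68 in low prolificacy. KDR, a receptor for vascular growth factor, was called at an adjusted p of 0.027 in limma (0.088 without high 2). Limma called none of 12 macrophage genes (1 at an unadjusted p under 0.05), and the smallest p was that of LAPTM5, a lysosomal membrane protein of leukocytes (difference 1.05, limma adjusted p = 0.11). The macrophage list mean lay between -0.47 and 0.84 in high and between -0.87 and 0.59 in low prolificacy. Their part in the level of FABP4 was not tested.

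The wider lipid pathways were set beside the 6 genes through 7 lists of other lipid genes, from which the 6 were left out. Of 140 listed genes on the array, 7 rose and 4 fell (limma, adjusted over all probe sets), or 5.00% and 2.86% (7.86% either way), where 5.34% of all 6765 genes rose and 5.42% fell (10.8% either way). The median difference of the 140 was 0.15 and that of all genes 0.073, and 93 of the 140 (66.4%) had a positive difference, where 60.1% of all genes did. In 3 of the 140 the groups did not overlap, which held for 3.78% of all genes. The share that rose was thus near that of all genes and the share that fell was smaller, and neither was tested against all genes. The count that rose moved strongly with single arrays: it was 15 without high 1 and 14 without low 3, 2 without high 2 or high 3, 3 without high 5, and 4 without low 1, low 6, low 7 or low 9. The count that fell was 2 without high 5, low 6 or low 9. Without low 7 and low 9 together, 2 rose and 2 fell.

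Around FASN, the fatty acid synthesis and desaturation list held 17 other genes, of which FADS6 alone rose. FADS6, named as a fatty acid desaturase, averaged 8.55 ± 0.60 over the 5 high arrays and 6.72 ± 0.88 over the 9 low arrays (SD), a difference of 1.83 ± 0.41 (SE, limma adjusted p = 0.014), and all 3 of its probe sets were called. The stearoyl-CoA desaturase SCD differed by 1.25 (limma adjusted p = 0.075) and its relative SCD5 by -1.28 (0.13), neither past the threshold. The delta-5 desaturase FADS1 differed by -0.33 (0.59). ACACA, the acetyl-CoA carboxylase that supplies FASN with malonyl units, and SREBF1, the transcription factor best known for inducing FASN, were looked up after the other values were seen. ACACA differed by -0.15 (limma adjusted p = 0.77) at levels of 3.84 in high and 3.99 in low prolificacy, under the array medians. SREBF1 differed by 0.30 (limma adjusted p = 0.29) and averaged 5.53 in high and 5.24 in low prolificacy, also under the array medians.

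Around DGAT2, the list of triacylglycerol synthesis and lipid droplet genes held 18 others, of which LPIN2 alone rose. LPIN2, a phosphatidate phosphatase that makes diacylglycerol, averaged 7.10 ± 0.70 over the 5 high arrays and 6.19 ± 0.29 over the 9 low arrays (SD) (difference 0.91, limma adjusted p = 0.035). It kept this call with 1 of high 1, high 4, low 3, low 4, low 5 and low 8 left out, but with none of the other arrays left out. Over the 14 such fits its adjusted p ranged from 0.0079 to 0.11. The droplet coat protein PLIN3 differed by 0.60 (limma adjusted p = 0.062), the acyltransferase AGPAT4 by -0.61 (0.13) and the droplet protein FITM1 by -0.12 (0.73). DGAT1, the other enzyme of the step that DGAT2 carries out and looked up after its value was seen, differed by 0.31 (limma adjusted p = 0.23).

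CES1 stood beside 15 other genes of ester and triacylglycerol hydrolysis, of which MGLL alone was called, in the opposite direction to CES1. MGLL, the lipase that splits monoacylglycerols, read 8.26, 6.32, 5.72, 7.22 and 6.44 in high 1 to high 5, and 8.45 to 10.56 in the low arrays. All high arrays lay below all low ones, and high 1 and high 4 were again the nearest to low prolificacy. The means were 6.79 ± 0.98 over the 5 high arrays and 9.54 ± 0.70 over the 9 low arrays (SD), a difference of -2.75 ± 0.41 (SE, limma adjusted p = 0.0017). Both MGLL probe sets were called, and the call held with each array left out (adjusted p at most 0.0087). The call was lost with the replicate number as a block and with the marker means as covariates. With these covariates the difference of MGLL also changed sign. The patatin-like lipases PNPLA4 and PNPLA6 differed by 0.42 (limma adjusted p = 0.22) and 0.32 (0.47), and lipoprotein lipase LPL by -0.52 (0.79).

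FABP4 stood beside 22 other genes of fatty acid uptake, binding and activation, of which CAV1 and ACOT13 fell and ACOT7 rose. CAV1, the coat protein of caveolae, averaged 9.81 ± 1.25 over the 5 high arrays and 12.21 ± 0.33 over the 9 low arrays (SD) (limma adjusted p = 0.0030), with all 3 of its probe sets called. The groups overlapped, since high 1 (11.48) lay above low 3 (11.45). ACOT7, an acyl-CoA thioesterase, read 7.66, 9.45, 9.44, 7.70 and 9.48 in high 1 to high 5 and 4.16 to 7.51 in the low arrays, with high 1 and high 4 the lowest of the high arrays, as in CES1 and DGAT2. Its difference was 2.64 ± 0.60 (SE, limma adjusted p = 0.014), and leaving out high 2 or high 3 ended the call (up to 0.053). High 1 and high 4 were likewise the lowest high arrays in FADS6, LPIN2, CFD, KDR and KRT8 and, among genes named below, in MBOAT1 and CEBPB. They were not in FASN, PPARG, SREBF2 or ACAA1. The thioesterase ACOT13 fell by 0.69 (log2; limma adjusted p = 0.028) in 1 of its 2 probe sets, and leaving out high 4, high 5, low 6 or low 9 ended the call (up to 0.080). The acyl-CoA synthetase ACSL5 differed by 0.71 (limma adjusted p = 0.061). FABP5 and FABP3, other carriers of the same family looked up after their values were seen, differed by 0.67 (limma adjusted p = 0.29) and 1.00 (0.46).

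CHPT1 stood beside 21 other genes of phospholipid synthesis, of which MBOAT1 alone was called, and it rose. MBOAT1, which adds acyl chains to lysophospholipids, read 5.21, 7.10, 6.99, 5.15 and 7.56 in high 1 to high 5 and 4.38 to 5.28 in the low arrays. High 1 and high 4 lay inside the low range, as for DGAT2, and 2 of its 4 probe sets were called. The difference was 1.53 ± 0.37 (SE, limma adjusted p = 0.019), and leaving out high 2, high 3 or high 5 ended the call (up to 0.070). CHKA, the kinase that starts the same choline branch that CHPT1 ends, differed by 0.71 (limma adjusted p = 0.056). The CDP-diacylglycerol synthases CDS2 and CDS1 differed by -0.63 (0.064) and -0.28 (0.55). CEPT1, which can carry out the same step as CHPT1 and was looked up after its value was seen, differed by 0.44 (limma adjusted p = 0.17).

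Beside PPARG, the list of lipid transcription regulators held 19 others, of which CEBPB and SREBF2 rose. CEBPB, a leucine zipper factor that acts ahead of PPARG in fat cell formation in mouse cells, averaged 11.65 ± 0.48 over the 5 high arrays and 10.08 ± 0.74 over the 9 low arrays (SD), a difference of 1.56 ± 0.34 (SE, limma adjusted p = 0.012). All 5 high arrays lay above all 9 low ones. The call held with each array left out and was lost with the replicate block and with the marker covariates. With these covariates the difference of CEBPB also changed sign. SREBF2, the regulator of cholesterol synthesis genes, rose by 0.68 (limma adjusted p = 0.037) in 1 of its 4 probe sets. Its call held without high 1, low 3, low 4 or low 5 and ended without any other array (adjusted p from 9e-04 to 0.10). INSIG1 and NCOR1, which restrain lipid gene transcription, differed by -0.38 (0.64) and -0.12 (0.74). RXRA, a partner of PPARG looked up after its value was seen, differed by 0.16 (limma adjusted p = 0.60). It averaged 5.11 in high and 4.95 in low prolificacy, under the array medians.

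Of 28 fatty acid oxidation genes, none of the 6 described here among them, ACAA1 rose and ACADSB fell. The peroxisomal thiolase ACAA1 differed by 0.64 (limma adjusted p = 0.049) and kept its call only without high 1 or low 3. The dehydrogenase ACADSB differed by -0.81 (limma adjusted p = 0.047) and kept its call only without high 1, high 4 or low 3. Over the 14 such fits the adjusted p ranged from 0.026 to 0.15 for ACAA1 and from 0.011 to 0.15 for ACADSB. The carnitine transferase CPT1B differed by -0.97 (0.062) and the dehydrogenase ACADS by 0.58 (0.12). The median difference of the 28 was 0.0088.

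**Figure D3:**
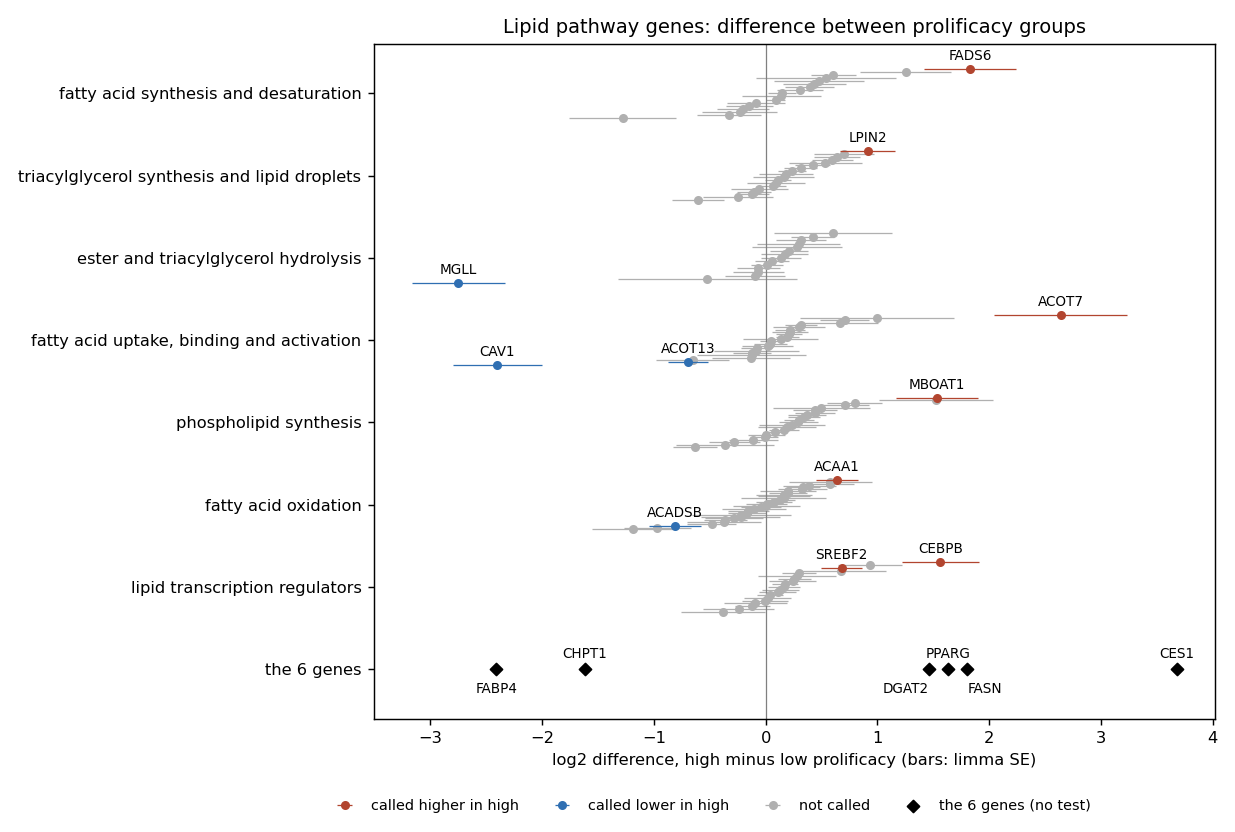
Log2 difference, high minus low prolificacy (x axis), of the 140 other lipid genes in 7 lists (rows), 1 point per gene with limma's SE as a bar, and of the 6 genes described here (diamonds, with no test). The 7 genes that rose and the 4 that fell are coloured and named, and MGLL (-2.75), CAV1 (-2.40) and ACOT7 (2.64) lie farthest from 0 among them.

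Co-variation inside low prolificacy does not use the difference that chose the genes, so it was tested over those 9 arrays. The 39 relations were the 6 pairs of FASN probe sets, the 15 pairs of genes (brightest probe set each), and each gene, by the same probe set, against the adipocyte, epithelium and smooth muscle means. None passed an adjusted p of 0.05 in the exact two-sided permutation test over all pairings, for Pearson's r or for Spearman's rho, and 6 had an unadjusted p under 0.05 for r. With 9 arrays only a tight relation could pass.

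Among FASN probe sets, the closest pair in low prolificacy was the 2 of middle brightness, with r = 0.85 (exact permutation p = 0.0035, adjusted 0.14) and rho = 0.82 (p = 0.011, adjusted 0.21). Without low 1 and low 8, the arrays farthest from the median, r was 0.68. The brightest probe set correlated with these 2 at r = 0.48 (exact permutation p = 0.19, adjusted 0.52) and r = 0.58 (p = 0.097, adjusted 0.42), with rho = 0.63 for both (p = 0.076, adjusted 0.42), and at r = 0.72 and 0.62 without low 4 and low 6. With the dimmest it had r = 0.10 (exact permutation p = 0.79, adjusted 0.91) and rho = 0.30 (p = 0.44, adjusted 0.68), and r = 0.77 without low 4 and low 6. With 1 array left out, 2 of these pairs passed. Without low 5, the 2 of middle brightness had r = 0.92 (exact permutation, adjusted p = 0.044), and without low 6 the dimmer of them and the dimmest had r = 0.97 (adjusted p = 0.0019), against r = 0.74 over all 9 (p = 0.025, adjusted 0.24) and rho = 0.88 (p = 0.0031, adjusted 0.12).

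CES1 and DGAT2 had the highest r among the gene pairs in low prolificacy, at r = 0.74 (exact permutation p = 0.023, adjusted 0.24) and rho = 0.63 (p = 0.076, adjusted 0.42). It rested in part on low 5 and low 8, without which r was 0.45. CES1 and CHPT1 had r = -0.68 (exact permutation p = 0.045, adjusted 0.29) and rho = -0.40 (p = 0.29, adjusted 0.67), and r = -0.54 without the same arrays. FASN and PPARG had r = 0.28 (exact permutation p = 0.47, adjusted 0.72) and rho = 0.17 (p = 0.68, adjusted 0.83), and r = -0.30 without low 4 and low 6. FABP4 and PPARG had r = -0.22 (exact permutation p = 0.54, adjusted 0.72) and rho = -0.07 (p = 0.88, adjusted 0.95), but r = 0.87 without low 4 and low 7, so even the sign of that relation rests on these arrays.

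Against the smooth muscle mean in low prolificacy, CES1 had r = -0.73 (exact permutation p = 0.022, adjusted 0.24) and rho = -0.77 (p = 0.021, adjusted 0.28), and r = -0.60 without low 5 and low 7. CHPT1, which was low with the smooth muscle genes across the groups, had r = 0.24 with that mean inside low prolificacy (exact permutation p = 0.53, adjusted 0.72), with rho = -0.08 (p = 0.84, adjusted 0.94) and r = 0.40 without low 5 and low 7. FABP4, also low with those genes across the groups, had r = -0.20 over the 9 arrays (exact permutation p = 0.59, adjusted 0.77) and rho = -0.50 (p = 0.18, adjusted 0.63). Without low 5 and low 7 it had r = -0.76 (exact permutation p = 0.0002, not adjusted) and rho = -1 (p = 0.0004, not adjusted), the smallest p-values that 7 arrays gave in any of the 39 relations. That sign is opposite to the one across the groups, and the size of r rests on leaving out these 2 arrays. Against the epithelium mean over the 9 arrays, r was 0.35 for FASN, 0.43 for CES1 and 0.56 for DGAT2. It was 0.54 for PPARG, -0.12 for FABP4 and -0.11 for CHPT1. The exact permutation p-values lay between 0.13 and 0.86 (adjusted 0.47 to 0.93). Low 7 and low 9 stood apart in the epithelium mean, so for it r is also given over the other 7 arrays. There it was 0.62 for FASN (exact permutation p = 0.14), 0.29 for CES1 (p = 0.52), -0.28 for DGAT2 (p = 0.51), -0.04 for PPARG (p = 0.92), 0.22 for FABP4 (p = 0.57) and -0.04 for CHPT1 (p = 0.93). Spearman's rho over the same 7 arrays was 0.43, 0.21, -0.46, -0.14, 0.54 and 0.18 for these genes in that order, with exact permutation p-values between 0.24 and 0.78.

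The genes most like each of the 6 were sought by Pearson's r over all 14 arrays after each group's mean was removed, as a description. Each of the 6765 genes, the 6 included, was taken by its brightest probe set. FASN was closest to NME2 (0.951), LOC100525869 (0.923) and METTL26 (0.921). CES1 was closest to TMEM139 (0.923), GOT1 (0.916) and RPL3 (0.910), and DGAT2 to SCNN1B (0.945), TMEM139 (0.939) and MBOAT1 (0.937). TMEM139 thus stood among the 3 closest genes of both CES1 and DGAT2, and MBOAT1 is the phospholipid gene described above. PPARG was closest to ZNF75D (0.845), ZNF655 (0.838) and SDHB (0.832). CHPT1 was closest to FKBP9 (0.975), LEPROT (0.941) and NID2 (0.925). FABP4 had the loosest neighbours, MND1 (0.766), TRIM59 (0.740) and SULF2 (0.739), of which MND1 and TRIM59 averaged 3.00 and 2.49, far under the array medians. Within the 9 low arrays alone, r for all these pairs ranged from 0.451 (CHPT1 with LEPROT) to 0.924 (FASN with LOC100525869). For CHPT1, which hardly varied there (SD 0.091), it was 0.797 with FKBP9 and 0.679 with NID2. For DGAT2 with MBOAT1 it was 0.663.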

How the data were processed

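The deposited values are log2 levels per probe set, which the authors made with RMA according to the submitters' processing notes. The software, version and options used there were not stated by the labels. RMA forces the arrays to 1 common intensity distribution, which would hide a shift of most transcripts together. Array medians ranged from 5.72 to 5.84, and precision is limited by how many arrays there are.

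Of 24123 probe sets, 124 Affymetrix controls were left out. The platform annotation, of some age, gave the symbols: 10069 tested probe sets had 1 symbol, 198 several and 13732 none. By gene number, 9961 of the 10069 were found in the gene table of Sscrofa11.1, with 0 symbols changed. A listed gene is its brightest probe set with 1 symbol.

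High minus low prolificacy was fitted by limma 3.58.1 under R 4.3.3 (lmFit then eBayes, two-sided, with no covariate), with Benjamini-Hochberg adjustment over 23999 probe sets and a threshold of 0.05. The labels call the sows biological replicates and give no array batch. Correlations used the 9 low prolificacy arrays, with exact permutation p-values adjusted over 39 relations. The procedures were tested on simulated data. No sequences were used here.

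The members, the 7 pathway lists and the 6 marker lists were chosen with earlier results of these data known. Named were all members, the 2 smallest p in each direction of each pathway list with all calls where there were 5 or fewer, the smallest p of each marker list, and the 3 most alike genes per member; exceptions are marked. Alternatives were the 12000 brightest probe sets, cyclic loess, median subtraction, array weights, eBayes with trend and robust settings, the replicate number as a block, marker means as covariates, leaving out low 7 and low 9 or each array, the smallest p per gene, an adjusted p of 0.10 and Spearman's rho.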

Additional observations from a re-analysis of the deposited data

Results flagged for a closer look

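Of 112 group-wise checks over 56 measures, 3 found an array far from the rest of its group, where chance gives about 1 in 20. None was a probe set of the 6 genes. Low 3 was at 4.83 in PNPLA4, with the next low prolificacy array at 4.20. Low 3 was at 11.45 in CAV1, below the next low prolificacy array at 12.08. High 5 was at -0.40 in the mean of the fatty acid oxidation genes, with the next high prolificacy array at 0.02.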

How the results depend on the processing

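The differences of the 6 genes, by their brightest probe sets, kept their sign under cyclic loess, median subtraction, array weights, the replicate block, without low 7 and low 9 and with each array left out. With the smooth muscle and epithelium covariates that of DGAT2 was -0.78 in place of 1.46. Among the called pathway genes, MGLL, CAV1, ACOT7, CEBPB, SREBF2, MBOAT1, LPIN2 and ACADSB changed sign in 1 alternative setting each. For all of them that setting was the fit with the smooth muscle and epithelium covariates. None of these genes changed sign with an array left out, and FADS6, ACOT13 and ACAA1 kept their sign throughout. The counts of 7 lipid pathway genes that rose and 4 that fell were 0 and 0 in limma with these covariates (0 at an unadjusted p under 0.05), 0 and 0 with the replicate block (23 at an unadjusted p under 0.05), 2 and 2 without low 7 and low 9, and 16 and 7 at an adjusted p of 0.10. With array weights 15 rose. With 1 array left out, between 2 and 15 rose and between 2 and 6 fell. The causes were not tested beyond what the fits show: the block leaves few residual degrees of freedom and the covariates take up most of the group. Low 6 to low 9 share their number with no high array, so with the block they add nothing to the difference. That fit compares high 1 to high 5 with low 1 to low 5 only. In the low prolificacy correlations 0 of 39 passed, and between 0 and 1 with 1 array left out. The labels share replicate numbers 1 to 5 between the groups without saying that these mark a pair. Deviations of same-numbered arrays correlated between -0.247 and 0.421, and high 4 was the only one of the 5 closest to its own number, so the numbers were not taken as pairs. Of all probe sets, 35 were called with the block and 1885 without it. Dim probe sets of DGAT2, PPARG and FABP4 limit their folds.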
